A study of Homo sapiens with 18 samples.

Results

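The 9 genes described here are *TFIP11*, *DHX15*, *GCFC2*, *PAXBP1*, *DBR1*, *CWF19L1*, *CWF19L2*, *DHX8* and *AQR*. They were listed for the stage at which the spliceosome is taken apart after splicing and the excised intron is opened and degraded. Not all of their proteins act at that stage itself, as given below for DHX8 and AQR. The genes were chosen by name, because the yeast relative of *DNAJC17* acts at the disassembly step, and each was found once among the 57500 genes of the deposited tables. RNA was sequenced from ES8, a Ewing sarcoma line, and Rh30, an alveolar rhabdomyosarcoma line, both of which carried dCas9 fused to the KRAB repressor (CRISPRi, in which an sgRNA leads the repressor to a gene and silences it). In each line, 3 replicates (A, B and C) were made of parental cells with a control sgRNA (sgCTL), of parental cells with an sgRNA against *DNAJC17* (sgDNAJC17), and of cells with sgDNAJC17 that also carried 3xFLAG-DNAJC17-dRRM. This last construct, called ΔRRM here, is a tagged *DNAJC17* that lacks its RNA recognition motif and was placed in the cells by a lentiviral vector with the EF1 promoter. All cells were transduced by lentivirus and kept in puromycin for 72 hours. Whether the ΔRRM cells are a clone or a pool is not given in the sources used here, and no ΔRRM cells with sgCTL were analysed here. The paper's methods name hygromycin as the selection for such constructs. The ΔRRM cells thus had a further transduction and drug selection, which are not described for the parental cells. In the ΔRRM cells the construct, its transduction and selection, and the sgRNA cannot be told apart. The titles of the ΔRRM samples read "+JC17-RRM", while their genotype field reads dRRM, and the genotype field was followed.

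Splicing leaves the intron as a lariat, a loop closed by a branched bond, still held by the spliceosome. DHX8 (the human relative of yeast Prp22) is the helicase that releases the spliced mRNA. DHX15 (the relative of Prp43) is the helicase that then takes the intron lariat spliceosome apart, and TFIP11 (the relative of Ntr1) is the G-patch protein that recruits and activates it. GCFC2 and PAXBP1 are related proteins of the GCF family, GCFC2 being a partner of TFIP11. DBR1 cuts the branched bond and so turns the lariat into a linear RNA, CWF19L1 and CWF19L2 are relatives of fission yeast Cwf19 and of Drn1, a partner of the yeast debranching enzyme, and AQR (Aquarius) is a helicase that binds the intron upstream of the branch point.

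Library totals ran from 35342393 to 48245989 counts. *DNAJC17* held 461 to 625 counts in the sgCTL libraries, 59 to 113 with sgDNAJC17 and 9849 to 14449 in the ΔRRM libraries, so its level went with the labels in all 18 libraries. In the ΔRRM libraries these counts include the construct. They do not show there whether the cells' own gene was silenced, nor whether the motif was missing. Of 7 Ewing sarcoma and 7 rhabdomyosarcoma genes taken as markers, 6 and 6 were higher in the line they mark, and *MYOG* and *CHRNA1*, both muscle genes, were at 0 in ES8 sgCTL, as *NKX2-2* and *CCK* were in Rh30 sgCTL. In ES8, the sgDNAJC17 replicate A library stood apart. Its deviations from the mean of its group correlated with the GC content of the genes (r = 0.699 across 12504 genes, which are not independent), against -0.523 and -0.532 for replicates B and C. In the ES8 ΔRRM group these correlations were -0.447, 0.27 and 0.155 (A, B and C). Values of the ES8 knockdown without sgDNAJC17 A are given beside those with it. In Rh30, the summed level of 17 genes of epithelial cells was 267 to 288 CPM with sgCTL, 289 to 313 with sgDNAJC17 and 338 to 369 in the ΔRRM libraries, against 290 to 352 CPM over all ES8 libraries. These 17 genes were listed with earlier results of these data known, so the directions of their means are not independent evidence of a shift. *CLDN7* and *RAB25* of this list were at 0 in Rh30 sgCTL. Most of the sum there came from *KRT7* (mean 57.4 CPM), *CLDN4* (98.1), *AP1M2* (31.3) and *PERP* (89.6). From sgCTL to sgDNAJC17 and ΔRRM in Rh30, *KRT8* went from 0.853 to 9.51 and 9.29 CPM, and *KRT18* from 0.251 to 3.18 and 3.05. Of the 17 means, only that of *CLDN4* was lower with sgDNAJC17 than with sgCTL (80.4 CPM). Only that of *JUP* was lower in the ΔRRM libraries (0.52 against 0.635 CPM). The summed level of the 7 rhabdomyosarcoma genes in Rh30 was 3339 to 3457 CPM with sgCTL, 2778 to 3047 with sgDNAJC17 and 2178 to 2433 in the ΔRRM libraries, with no overlap. In the same order, the means were 1006, 913 and 671 CPM for *MYOD1*, 1138, 1072 and 809 for *DES*, and 121, 95.2 and 72.1 for *MYOG*. They were 243, 237 and 181 CPM for *CHRNA1*, 364, 255 and 211 for *CDH15*, and 521, 326 and 336 for *FGFR4*. *PAX3* rose on knockdown (18, 22.2 and 13.7 CPM) and was higher in ES8 sgCTL (25.2 CPM). The summed level of the 7 Ewing sarcoma genes in ES8 was 604 to 627 CPM, 652 to 659 and 620 to 712. Its largest part was *CD99* (means 318, 381 and 359 CPM), which was higher in Rh30 sgCTL (343 CPM) than in ES8 sgCTL. In the same order, *NR0B1* was 67.6, 54.6 and 69 CPM, *STEAP1* 46, 40.8 and 43, and *LIPI* 51.3, 42.8 and 49.5. *NKX2-2* was 97.7, 99.8 and 98.5 CPM, *PAX7* 34.7, 34.5 and 31.2, and *CCK* 1.61, 2.31 and 5.39. The part of these shifts in the results below was not tested. Values are relative to the RNA of each library, so that fewer cells of a kind and less RNA per cell cannot be told apart.

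All 9 genes were expressed in every library, from 179 counts, for *CWF19L2*, to 18397 counts, for *DHX15*. Levels were compared between genes as CPM per kb of exon, CPM being counts scaled to a common library total by the TMM method. With sgCTL in ES8, *DHX15* was the highest, at 29.7 ± 0.493 CPM per kb (SD, n = 3), followed by *DHX8* at 9.44 ± 0.188 and *DBR1* at 9.43 ± 0.658, whose libraries overlapped. *TFIP11* came next at 7.69 ± 0.253 CPM per kb, then *CWF19L1* at 6.76 ± 0.301, *AQR* at 4.64 ± 0.119, *PAXBP1* at 4.06 ± 0.0526, *GCFC2* at 3.65 ± 0.285 and *CWF19L2* at 2.29 ± 0.158, with no overlap between neighbours in this order. The helicase *DHX15* was thus expressed above its activator *TFIP11*, with no overlap, in all 6 groups, and *CWF19L2* was the lowest in all 6. In Rh30 sgCTL the order was the same at its ends, and *CWF19L1*, at 10.7 ± 0.384 CPM per kb, lay below *DBR1* at 11.9 ± 0.634, which overlapped with *TFIP11* at 12.1 ± 0.234. In the Rh30 ΔRRM libraries *CWF19L1* was second only to *DHX15*, at 19.4 ± 0.510 CPM per kb. *PAXBP1*, at 2.38 ± 0.159 CPM per kb in Rh30 sgCTL, overlapped with *CWF19L2* at 2.10 ± 0.219. The order depends on the length taken: with the longest coding transcript in place of all exonic bases, 5 of the 9 genes kept their place in ES8 sgCTL.

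**Figure D1:**
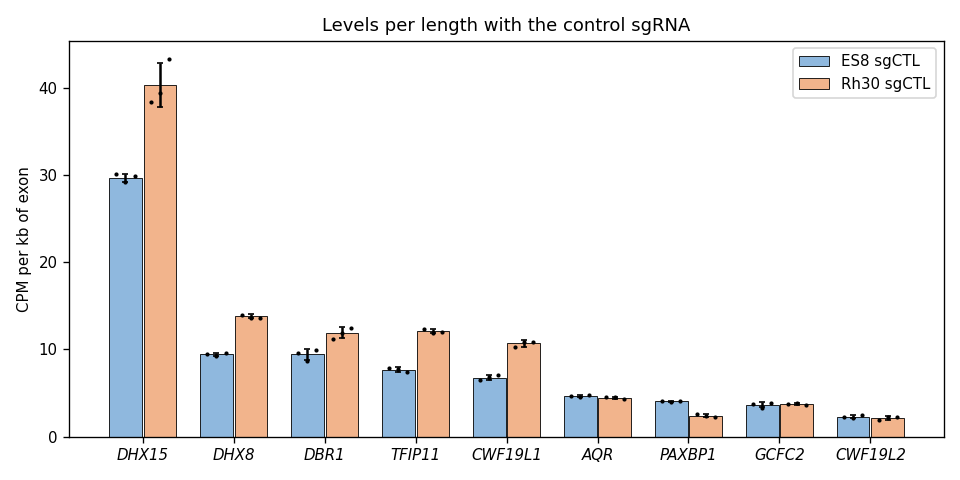
Level per length of each gene with the control sgRNA, in CPM per kb of exon. Bars are the mean of 3 libraries, error bars the SD and dots the libraries; DHX15 stands at 29.7 in ES8 and 40.4 in Rh30, and no other gene exceeds 13.8.

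The lines themselves differed at most of these genes. With sgCTL, 5 of the 9 were higher and 1 was lower in Rh30 than in ES8 at an adjusted p under 0.05, where 87.5% of 17925 genes tested were called, 42% upward and 45.5% downward. *PAXBP1* differed most, with 29.6, 28.9 and 29.5 CPM in ES8 (replicates A, B and C) and 18.3, 17.1 and 16.0 CPM in Rh30. Its log2 fold change of Rh30 over ES8 was -0.80 (standard error, SE, 0.07, adjusted p = 1.11e-14). This and every adjusted p below comes from the quasi-likelihood test of edgeR, adjusted over all genes tested by the Benjamini-Hochberg method. *CWF19L1* (0.64), *TFIP11* (0.62), *DHX8* (0.52), *DHX15* (0.41) and *DBR1* (0.30) were higher in Rh30 on the log2 scale. *GCFC2* (0.01), *AQR* (-0.09) and *CWF19L2* (-0.15) did not pass the test. Scaling by library totals alone, which shifted the median of all genes by -0.21 in this comparison, took the call from *DBR1* (0.09) and called *GCFC2* (-0.21), *CWF19L2* (-0.37) and *AQR* (-0.30) lower.

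On knockdown of *DNAJC17* in ES8, *TFIP11*, *DBR1* and *DHX15* rose. No member passed the test in the downward direction (0 of 9, against 1 of 9 at an unadjusted p under 0.05 and 0 of 9 by DESeq2), and the other 6 did not pass it either way. For comparison, 27.4% of 17143 genes were called, 13.6% upward and 13.8% downward. The median log2 fold change of the 9 members was -0.04, against -0.02 over all genes tested. The sgCTL and sgDNAJC17 libraries did not overlap for 5 of the 9 members, where 44.8% of all genes tested did not overlap. The share of all genes called depended on the libraries: it was 45.3% of 17652 genes without sgDNAJC17 A (22.4% upward), 14.3% to 15.5% without 1 of the sgCTL libraries, and 19.6% and 21.4% without sgDNAJC17 B or C.

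*TFIP11* changed most in ES8. Its libraries held 43.0, 42.1 and 40.3 CPM with sgCTL and 58.8, 59.5 and 56.8 CPM with sgDNAJC17. All 3 knockdown libraries lay above all controls, and the log2 fold change was 0.46 (SE 0.06, 95% interval 0.32 to 0.60, adjusted p = 0.00094), a rise of 37.5%. The call was kept in each of 9 other fits, with values of 0.41 to 0.48, and without each library in turn, with values of 0.43 to 0.48 (0.45 without sgDNAJC17 A). *TFIP11* shares 1387 exonic bases, 25.5% of its exons, with *SRRD* on the opposite strand. The strand on which reads were counted is not given in the sources used here, so reads of the shared bases cannot be told apart. *SRRD* itself had a log2 fold change of 0.18 (adjusted p = 0.101).

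*DBR1*, the debranching enzyme, held 30.3, 27.5 and 31.6 CPM with sgCTL and 38.3, 39.1 and 40.3 CPM with sgDNAJC17 in ES8. The groups did not overlap. Its log2 fold change was 0.38 (SE 0.07, 95% interval 0.21 to 0.54, adjusted p = 0.00495), a rise of 29.7%. The call was kept in each of the 9 other fits (0.33 to 0.43) and without each library (0.32 to 0.41, and 0.39 without sgDNAJC17 A). *DBR1* shares no exonic base with another gene.

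*DHX15* held 246, 238 and 244 CPM with sgCTL in ES8, and 270, 275 and 282 CPM with sgDNAJC17. The groups did not overlap, but the rise was small, at a log2 fold change of 0.16 (SE 0.05, adjusted p = 0.0374). It lost its call without any 1 library but sgDNAJC17 A, without which it was 0.17, and with DESeq2, library totals alone or no filter on low counts. A correction by GC content and exonic length raised it to 0.34 (adjusted p = 0.00572). *DHX15* has the lowest GC content of the 9 genes, 35.2%, and *TFIP11* the highest, 51.3%, each taken over the longest annotated transcript.

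*PAXBP1* was the only member in ES8 whose 95% interval lay below 0, though it did not pass the adjusted test. Its libraries held 29.6, 28.9 and 29.5 CPM with sgCTL and 19.2, 28.2 and 25.2 CPM with sgDNAJC17, where replicate A is the lowest. The log2 fold change was -0.30 (SE 0.12, 95% interval -0.57 to -0.03, adjusted p = 0.0945). Without sgDNAJC17 replicate A it was -0.16 and was called (adjusted p = 0.0248), without replicate B it was -0.42 and was called (adjusted p = 0.0355), with the correction by GC and length it was -0.21 and was called (adjusted p = 0.0262), and with no filter on low counts it was also called (adjusted p = 0.0143). The relative *GCFC2* had a log2 fold change of -0.15 (adjusted p = 0.331), with 20.7, 18.2 and 21.0 CPM against 15.7, 19.7 and 19.5 CPM, and the groups overlapped. Without sgDNAJC17 A it was -0.05 (adjusted p = 0.584).

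The other members did not pass the test in ES8. *DHX8* held 87.7, 86.1 and 89.6 CPM with sgCTL and 101, 92.9 and 93.8 CPM with sgDNAJC17, which do not overlap, at a log2 fold change of 0.11 (adjusted p = 0.208). The correction by GC and length made it 0.21 (adjusted p = 0.00483), and without sgDNAJC17 A it was 0.06 (adjusted p = 0.215). *AQR* (-0.09, 95% interval -0.30 to 0.11), *CWF19L1* (-0.07, -0.31 to 0.16) and *CWF19L2* (-0.04, -0.41 to 0.34) overlapped between groups. In each of these, sgDNAJC17 replicate A was the lowest of the 6 libraries, at 50.6 CPM for *AQR*, 21.9 for *CWF19L1* and 5.68 for *CWF19L2*. Without it, their log2 fold changes were 0.01, 0.03 and 0.16, none of them called.

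On knockdown of *DNAJC17* in Rh30, *DHX15*, *GCFC2*, *DBR1* and *TFIP11* rose, 4 of the 9 members, where 32.3% of 15391 genes were called, 16.1% upward and 16.2% downward. No member passed the test downward (0 of 9, also 0 of 9 at an unadjusted p under 0.05 and by DESeq2). The median log2 fold change of the 9 was 0.12, against 0.00 over all genes. The sgCTL and sgDNAJC17 libraries did not overlap for 4 of the 9 members, and for 44.3% of all genes. *TFIP11*, *DHX15* and *DBR1* were called upward in both lines, each line having its own sgCTL libraries, and so were 854 (6.17%) of the 13841 genes tested in both. Of these calls, that of *DHX15* in ES8 was lost on leaving out any of 5 of the 6 libraries, and those of *TFIP11* and *DBR1* in Rh30 were lost under several settings given below. The share of all genes called in Rh30 was 19.4% without sgDNAJC17 B, 20.1% without sgCTL A and 41.4% without sgDNAJC17 A.

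*DHX15* changed most in Rh30, with 313, 323 and 353 CPM with sgCTL and 410, 429 and 437 CPM with sgDNAJC17. The groups did not overlap, and the log2 fold change was 0.38 (SE 0.06, 95% interval 0.25 to 0.52, adjusted p = 0.000719), a rise of 30.4%. It was called in each of 9 other fits (0.31 to 0.38) and without each library (0.35 to 0.43). *GCFC2* followed, with 20.6, 21.2 and 19.6 CPM against 23.2, 26.6 and 25.0 CPM. Its groups did not overlap, and its log2 fold change was 0.30 (SE 0.08, adjusted p = 0.0093). It kept its call in 9 other fits (0.19 to 0.30) and lost it only without sgDNAJC17 replicate B, of the 6 libraries (0.25, adjusted p = 0.0606). *GCFC2* shares 132 exonic bases with *MRPL19*, which lies on the opposite strand and encodes a mitochondrial ribosomal protein. *MRPL19* had a log2 fold change of 0.40 (adjusted p = 0.00062) in the same comparison.

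*DBR1* held 35.4, 37.6 and 39.4 CPM with sgCTL in Rh30 and 41.9, 42.9 and 44.1 CPM with sgDNAJC17. The groups did not overlap, and the log2 fold change was 0.21 (SE 0.07, adjusted p = 0.0254). The correction by GC and length ended this call and left 0.03 (adjusted p = 0.736), and the call was also lost with library totals alone (0.15), no filter on low counts (0.20), all 18 libraries in 1 fit (0.20), and without sgCTL A or B or sgDNAJC17 B or C (0.18 to 0.22). *TFIP11* held 67.0, 64.5 and 65.3 CPM against 74.4, 76.8 and 69.6 CPM, again without overlap. Its log2 fold change in Rh30 was 0.18 (SE 0.06, adjusted p = 0.0371). The corrected value was 0.22 (adjusted p = 0.00235), library totals alone gave 0.12 (adjusted p = 0.166), no filter on low counts and all 18 libraries in 1 fit gave 0.17 (adjusted p = 0.113 and 0.086), and the call was lost without sgCTL A, B or C or sgDNAJC17 B (0.15 to 0.20).

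Among the members that did not pass in Rh30, *DHX8* held 131, 127 and 127 CPM with sgCTL and 130, 115 and 112 CPM with sgDNAJC17. Its log2 fold change was -0.09 (adjusted p = 0.284). Without sgDNAJC17 A it was -0.15 and was called (adjusted p = 0.047). *AQR* (-0.08, 95% interval -0.22 to 0.07), *PAXBP1* (-0.05, -0.25 to 0.15), *CWF19L1* (0.06, -0.10 to 0.23) and *CWF19L2* (0.12, -0.10 to 0.34) overlapped between the groups.

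**Figure D2:**
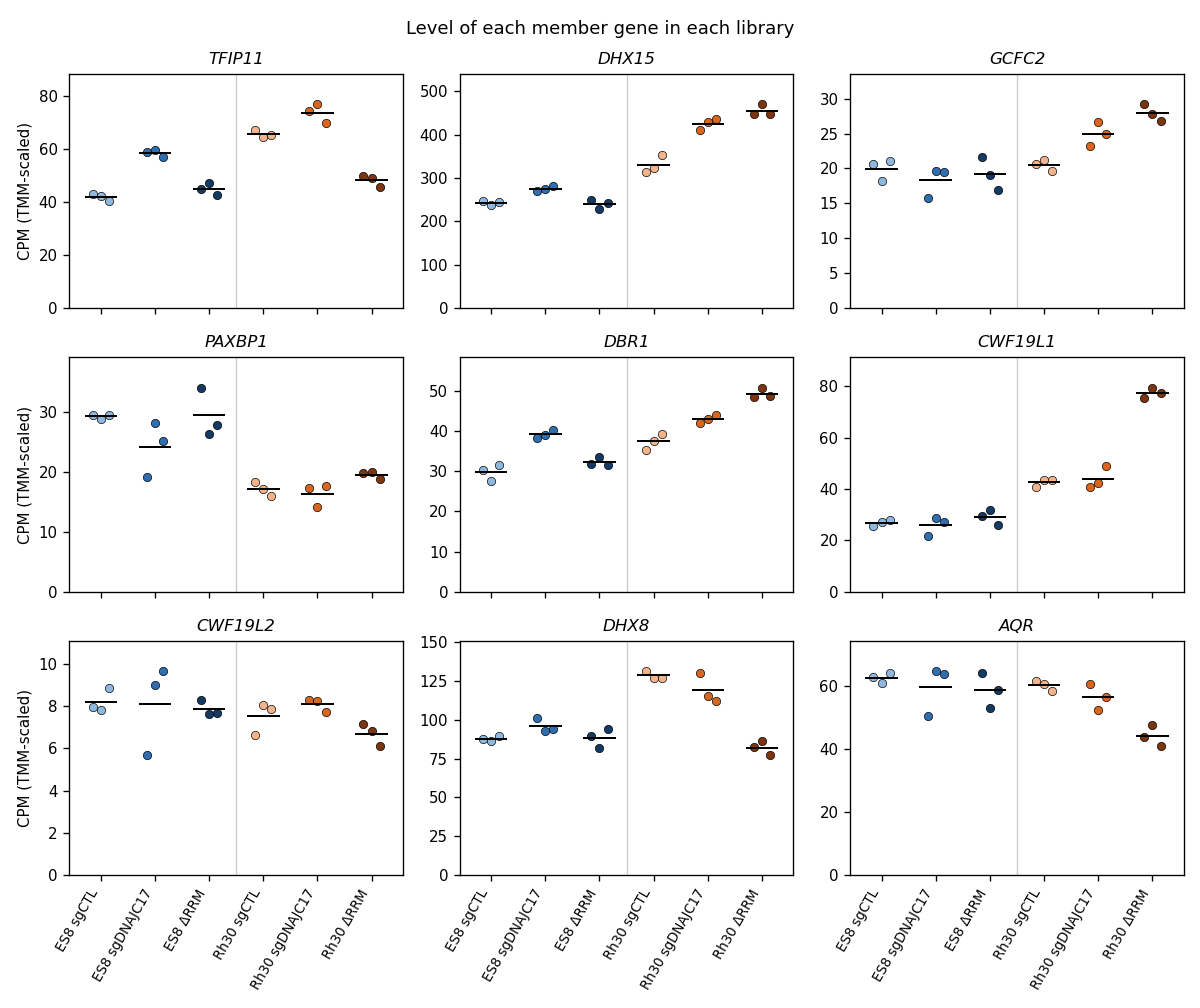
CPM of each gene in each of the 18 libraries, each panel with its own linear axis from 0. Points are replicates A, B and C from left to right and lines the group mean; TFIP11 rises from 41.8 to 58.4 CPM on knockdown in ES8 and falls from 65.6 to 48.2 CPM between sgCTL and ΔRRM in Rh30, where CWF19L1 stands at 77.4 CPM.

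The response of the members to knockdown was compared between the lines with an interaction term over the 12 parental libraries, in which 9.78% of 18899 genes were called, 5.23% upward and 4.55% downward. *GCFC2* was the only member called, at a difference of 0.48 on the log2 scale (Rh30 minus ES8, SE 0.13, adjusted p = 0.0252), and it lost this call with library totals alone (0.43), with all 18 libraries in 1 fit (0.41) and without sgCTL A or C of either line or Rh30 sgDNAJC17 B or C (0.42 to 0.47). *DHX15* had a difference of 0.25 (adjusted p = 0.0869) and *TFIP11* one of -0.25 (adjusted p = 0.0954), and DESeq2 called both (0.23 and -0.27). *DHX15* was also called without ES8 sgDNAJC17 A (0.25, adjusted p = 0.0376) or Rh30 sgDNAJC17 A (0.29, adjusted p = 0.034), and *TFIP11* with at least 10 counts in every library (-0.27, adjusted p = 0.0482) and with all 18 libraries in 1 fit (-0.32, adjusted p = 0.0381). The 95% intervals were 0.06 to 0.44 for *DHX15* and -0.45 to -0.06 for *TFIP11*. With the correction by GC and length *DHX15* was 0.00 and *TFIP11* -0.17, neither called. For *DBR1* the difference was -0.14 (95% interval -0.36 to 0.08), and with the correction by GC and length it was -0.34 and was called (adjusted p = 0.0154).

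**Figure D3:**
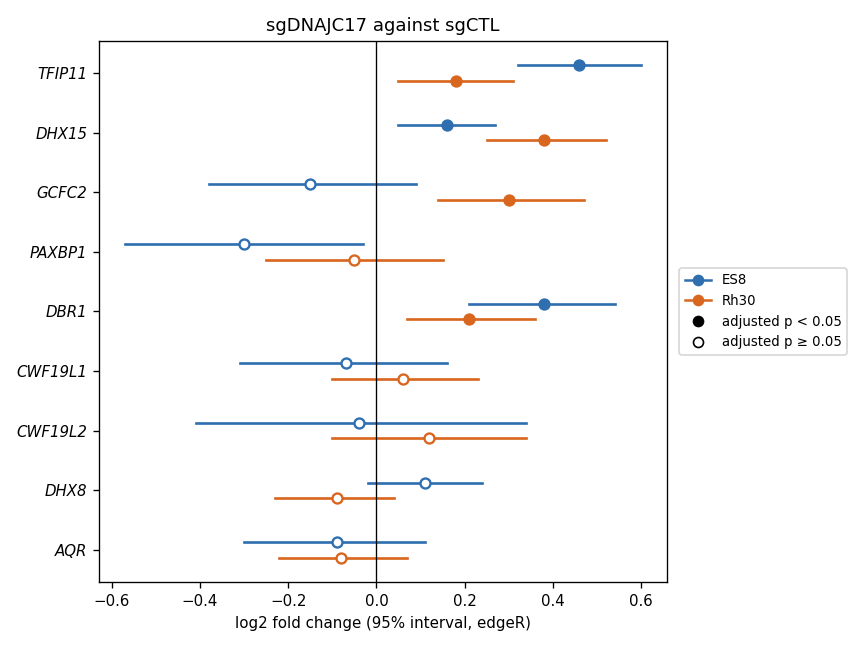
Log2 fold change of each gene on knockdown, sgDNAJC17 over sgCTL, in ES8 and Rh30. Points are edgeR's estimates and bars 95% intervals, and filled points have an adjusted p under 0.05; TFIP11 (0.46 and 0.18), DHX15 (0.16 and 0.38) and DBR1 (0.38 and 0.21) are filled in both lines.

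**Figure D4:**
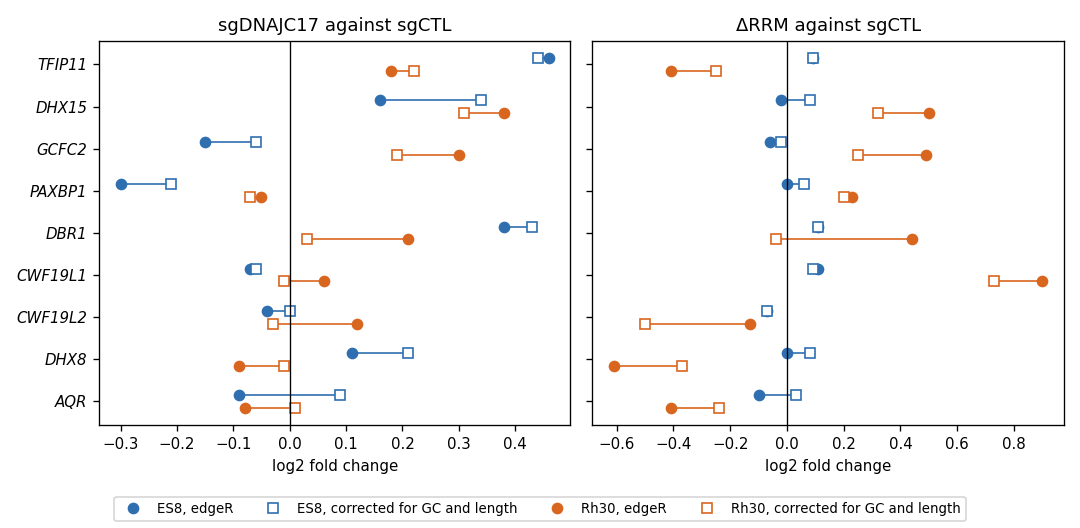
Log2 fold change of each gene by edgeR (circles) and after a correction by GC content and exonic length (open squares), for knockdown and for ΔRRM, each against sgCTL. DBR1 in Rh30 moves from 0.21 to 0.03 and from 0.44 to -0.04, while TFIP11 in ES8 moves from 0.46 to 0.44.

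In the ΔRRM cells of ES8, no member passed the test against sgCTL (0 of 9, also 0 of 9 at an unadjusted p under 0.05 and by DESeq2), where 0.174% of 17199 genes were called, 0.093% upward and 0.0814% downward. The share of all genes called was 2.62% without ΔRRM A and 0.0114% without sgCTL B or C, and no member was called on leaving out any library. The members' log2 fold changes ran from -0.10, for *AQR*, to 0.11, for *DBR1* and *CWF19L1*, and the groups overlapped for all 9. *TFIP11* held 44.8, 47.0 and 42.7 CPM in the ΔRRM libraries, at a log2 fold change of 0.09 (95% interval -0.05 to 0.24). *DBR1* held 31.7, 33.5 and 31.5 CPM (0.11, 95% interval -0.05 to 0.27) and *DHX15* 250, 228 and 243 CPM (-0.02, 95% interval -0.15 to 0.11). *PAXBP1* held 34.1, 26.4 and 27.9 CPM (0.00, 95% interval -0.20 to 0.20).

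Against the sgDNAJC17 libraries of ES8, 1 member was lower in the ΔRRM libraries, where 14.7% of 17099 genes were called, 7.35% upward and 7.36% downward. This was *TFIP11*, at a log2 fold change of -0.36 (SE 0.09, adjusted p = 0.019), and its ΔRRM libraries all lay below the knockdown libraries. It was -0.35 without sgDNAJC17 A and was called (adjusted p = 0.0128), and its call was lost without sgDNAJC17 B or C or ΔRRM A or C (-0.38 to -0.33). *DBR1* was -0.26 (95% interval -0.46 to -0.06, adjusted p = 0.0758) and did not overlap, and without sgDNAJC17 A it was -0.28 and was called (adjusted p = 0.0386). *DHX15* was -0.17 (adjusted p = 0.164), also without overlap. Of all genes, 34.8% did not overlap between these groups. These values share the sgDNAJC17 libraries with the knockdown comparison above.

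In Rh30, the ΔRRM libraries differed from sgCTL at 8 of the 9 members, 5 upward and 3 downward, where 68.8% of 15442 genes were called, 33.8% upward and 35% downward. The groups did not overlap for these 8, as for 71.5% of all genes, and *CWF19L2* (-0.13, adjusted p = 0.306) was the member not called. Scaling by library totals alone shifted the median of all genes by -0.24 in this comparison, so the values below are relative to TMM's centre.

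*CWF19L1* had the largest change of any member in any comparison. It held 40.9, 43.5 and 43.5 CPM with sgCTL, 40.9, 42.4 and 48.9 CPM with sgDNAJC17, and 75.4, 79.5 and 77.3 CPM in the ΔRRM libraries of Rh30. The ΔRRM libraries lay far above both other groups, which overlapped. The log2 fold change was 0.90 against sgCTL (SE 0.06, 95% interval 0.77 to 1.03, adjusted p = 5.84e-19), a rise of 86.2%, and 0.82 against sgDNAJC17 (SE 0.08, adjusted p = 1.19e-14). Over 9 other fits it stayed between 0.66 and 0.91 and called. In ES8, the ΔRRM libraries held 29.6, 32.0 and 25.9 CPM of *CWF19L1* against 25.6, 27.1 and 28.0 CPM with sgCTL (0.11, 95% interval -0.08 to 0.29). An intron of *CWF19L1* holds the small nucleolar RNA gene *SNORA12*, which had 0 to 12 counts per library and was not tested.

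The other members that were higher in the Rh30 ΔRRM libraries were *DHX15*, *GCFC2*, *DBR1* and *PAXBP1*. *DHX15* held 447, 470 and 447 CPM, a log2 fold change of 0.50 against sgCTL (SE 0.06, adjusted p = 3.92e-10). Against sgDNAJC17 it did not pass the test (0.11, 95% interval -0.05 to 0.26). *GCFC2* held 29.2, 27.8 and 26.8 CPM, a log2 fold change of 0.49 against sgCTL (SE 0.08, adjusted p = 5.59e-08). Against sgDNAJC17, *GCFC2* was 0.17 (adjusted p = 0.0871). For both genes the ΔRRM libraries lay above all sgCTL and all knockdown libraries, but their distance from the latter did not pass the test.

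*DBR1* held 48.6, 50.8 and 48.7 CPM in the Rh30 ΔRRM libraries, at a log2 fold change of 0.44 against sgCTL (SE 0.07, adjusted p = 6.58e-08) and 0.21 against sgDNAJC17 (adjusted p = 0.0221). The correction by GC and length turned both, to -0.04 and -0.08, neither called. The second was also lost with library totals alone (0.05), no filter on low counts (0.20) and without sgDNAJC17 A or B or ΔRRM B or C (0.18 to 0.21). *PAXBP1* held 19.9, 20.0 and 18.8 CPM, at 0.23 against sgCTL (SE 0.08, adjusted p = 0.00971) and 0.27 against sgDNAJC17 (adjusted p = 0.0134). Library totals alone gave -0.01 and 0.10, all 18 libraries in 1 fit gave 0.19 and 0.26, and leaving out sgCTL C gave 0.18 (adjusted p = 0.0847) against sgCTL and sgDNAJC17 B 0.18 (adjusted p = 0.191) against sgDNAJC17, none of them called.

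*DHX8*, *TFIP11* and *AQR* were lower in the Rh30 ΔRRM libraries than in both other groups. *DHX8* held 82.3, 86.3 and 77.2 CPM, all under the 112 CPM of the lowest knockdown library, at a log2 fold change of -0.61 against sgCTL (SE 0.06, adjusted p = 3.73e-13) and -0.52 against sgDNAJC17 (adjusted p = 1.56e-08). *TFIP11* held 49.7, 49.1 and 45.6 CPM. It was at -0.41 against sgCTL (SE 0.06, adjusted p = 1.05e-07) and at -0.60 against sgDNAJC17 (SE 0.08, adjusted p = 4.86e-10), so it lay below sgCTL in the ΔRRM cells and above sgCTL in the knockdown cells. *SRRD*, which shares exonic bases with it, was -0.18 against sgCTL (adjusted p = 0.0213). *AQR* held 43.8, 47.6 and 41.1 CPM, at -0.41 against sgCTL (SE 0.07, adjusted p = 2.12e-07) and -0.35 against sgDNAJC17 (adjusted p = 0.000191). All 3 genes kept their direction and their call against both groups in 9 other fits and without each library, with the correction giving -0.37 for *DHX8*, -0.25 for *TFIP11* and -0.24 for *AQR* against sgCTL.

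*CWF19L2* held 7.14, 6.82 and 6.11 CPM in the Rh30 ΔRRM libraries. It was at -0.26 against sgDNAJC17 (95% interval -0.50 to -0.02, adjusted p = 0.0544), and with the correction it was -0.50 against sgCTL and -0.48 against sgDNAJC17, both called (adjusted p = 9.43e-05 and 0.00027). Against sgDNAJC17 in Rh30, 3 members were called upward and 3 downward, where 60% of 15309 genes were called (29.4% upward and 30.5% downward), and the groups did not overlap for any of the 9, nor for 64.2% of all genes. Here too the sgDNAJC17 libraries are shared with the knockdown comparison.

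**Figure D5:**
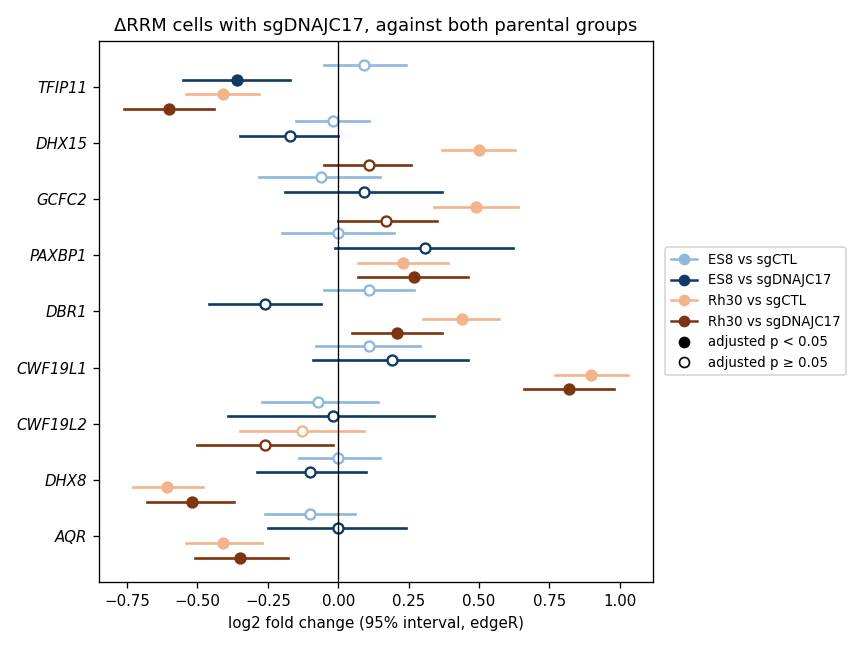
Log2 fold change of each gene in ΔRRM cells with sgDNAJC17, over sgCTL and over sgDNAJC17, in both lines. Points are edgeR's estimates, bars 95% intervals, and filled points have an adjusted p under 0.05; in ES8 only TFIP11 against sgDNAJC17 (-0.36) is filled, while in Rh30 CWF19L1 (0.90 and 0.82) and DHX8 (-0.61 and -0.52) stand at the ends.

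The contrast of ΔRRM with sgCTL differed between the lines for 7 members by an interaction term, where 41.4% of 18854 genes were called, 19.9% upward and 21.5% downward. It was 0.79 for *CWF19L1* (Rh30 minus ES8 on the log2 scale, adjusted p = 1.47e-06), 0.55 for *GCFC2*, 0.52 for *DHX15* and 0.33 for *DBR1*. It was -0.61 for *DHX8* (adjusted p = 7.77e-06), -0.50 for *TFIP11* and -0.30 for *AQR*. *PAXBP1* (0.23, adjusted p = 0.139) and *CWF19L2* (-0.06, adjusted p = 0.812) did not pass. The value of *DBR1* turned to -0.11 with the correction by GC and length and was 0.11 with library totals alone, neither called, and that of *AQR* was -0.26 without Rh30 ΔRRM C and not called. *CWF19L2* was called with the correction (-0.41).

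No member changed by a fold of 2 in any of these comparisons (0 of 9 in each). Of all genes, 1.95% were called at that fold on knockdown in ES8 and 1.55% in Rh30. With ΔRRM over sgCTL the share was 0.0349% in ES8 and 9.97% in Rh30, and over sgDNAJC17 it was 1.97% and 7.79%. They were 1.26% and 6.66% for the interactions with the sgRNA and with ΔRRM, and 50.9% between the lines with sgCTL.

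Other genes of the catalytic steps of splicing were followed as a list of 26, which holds helicases, step factors and proteins that join at the catalytic steps and stay to the intron lariat spliceosome. In the ES8 knockdown, 11 rose and none passed the test downward (1 at an unadjusted p under 0.05, none by DESeq2), with a median log2 fold change of 0.17 against -0.02 over all genes, of which 13.6% were called upward and 13.8% downward. Without sgDNAJC17 replicate A, 18 rose and 3 fell, where 22.4% and 22.9% of all genes did. Without sgCTL A 7 rose and without sgCTL C 6 rose, where 7.93% and 7.61% of all genes did. *ZNF830* rose from 11.9 ± 0.680 to 19.5 ± 0.421 CPM (SD, n = 3), or by 0.69 on the log2 scale (adjusted p = 0.000584 by edgeR), and *ESS2* from 30.4 ± 0.534 to 44.5 ± 3.27 CPM (0.53, adjusted p = 0.00105 by edgeR). *RBM22*, which binds the U6 snRNA and the intron in the active site, rose by 0.41 in ES8 (adjusted p = 0.00169).

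In the Rh30 knockdown, 11 of the 26 rose and 6 fell, where 16.1% of all genes rose and 16.2% fell. The median was 0.18, against 0.00 over all genes. *ZNF830* (0.60), *BUD31* (0.60) and *RBM22* (0.49) had the smallest p-values. With the correction by GC and length, 11 rose and 3 fell, where 16.7% and 14.5% of all genes did, and the median was 0.08. Leaving out 1 library gave 6 to 13 that rose and 1 to 7 that fell. The fewest of both came without sgDNAJC17 B, where 9.45% of all genes rose and 9.91% fell. The most came without sgDNAJC17 A, where 20.3% rose and 21.1% fell. In the Rh30 ΔRRM libraries, 10 of the 26 were higher and 10 lower than with sgCTL, where 33.8% of all genes were higher and 35% lower. In ES8 none was called against sgCTL (none at an unadjusted p under 0.05 and none by DESeq2), where 0.174% of all genes were called.

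*TFIP11* belongs to the G-patch proteins, which carry a short glycine-rich stretch with which several of them activate DEAH helicases such as DHX15. Of 22 others, 21 could be paired with 1 gene each. In the ES8 knockdown 7 rose and 1 fell, with a median of 0.02, where 13.6% of all genes rose and 13.8% fell. Leaving out 1 library gave from 4 that rose, without sgCTL B, to 10, without sgDNAJC17 A. Of all genes, 8.27% rose without sgCTL B and 22.4% without sgDNAJC17 A. *GPATCH3* rose from 21.8 ± 0.637 to 37.1 ± 3.24 CPM (SD, n = 3), or by 0.74 on the log2 scale (adjusted p = 0.00041 by edgeR), *SON* by 0.43 and *CHERP* by 0.37. In the Rh30 knockdown 3 rose and 2 fell, with a median of 0.00, where 16.1% of all genes rose and 16.2% fell. *GPATCH3* (0.26), *GPATCH2* (0.26) and *NKRF* (0.23) were those that rose. With library totals alone none rose and 4 fell, where 11.1% and 20.8% of all genes did. None rose without sgCTL B or C (11.9% and 11.6% of all genes), against 5 without sgDNAJC17 A (20.3% of all genes). In the Rh30 ΔRRM libraries, 14 of the 21 were lower than with sgCTL and 2 higher, with a median of -0.27 against -0.01 over all genes, of which 35% were lower and 33.8% higher. With library totals alone 17 were lower and 1 higher (median -0.50), where 46.8% of all genes were lower and 23.2% higher (median -0.25). With the correction by GC and length 11 were lower and 4 higher (median -0.22), where 32.1% and 30.6% of all genes were.

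The genes whose levels went most closely with each member were sought among 11759 protein-coding genes, by Pearson's r over the 18 libraries after each line was centred on its own mean, as a description with no test. *TFIP11* went most closely with *HSPA5*, the HSP70 chaperone of the endoplasmic reticulum (r = 0.986), and with *KCTD5* (0.982). *DHX15* went with *RBM18* (0.955) and *KCMF1* (0.952), *DBR1* with *AAGAB* (0.967) and *NDUFAF1* (0.966), and *GCFC2* with *C4orf46* (0.927) and *TRNT1* (0.920), the enzyme that adds CCA to tRNA. *CWF19L1* went with *SLC25A14* (0.985) and *NUP54*, a nuclear pore protein (0.982). *DHX8* went with *GNA12* (0.982) and *PCDHGC3* (0.981), *AQR* with *USP47* (0.975) and *GJC1* (0.971), *PAXBP1* with *GEN1* (0.924) and *ARHGAP12* (0.913), and *CWF19L2* with *NOL8* (0.879) and *HOXC4* (0.849). These libraries share their depth and the 6 group means, and no member was among the 2 closest genes of another.

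The genes lie on 9 different chromosomes of GRCh38, the build of the positions in the files. *TFIP11* (ENSG00000100109) runs from 26491225 to 26512505 on the minus strand of chromosome 22, *DHX15* (ENSG00000109606) from 24517441 to 24584550 on the minus strand of chromosome 4, and *CWF19L1* (ENSG00000095485) from 100232298 to 100267680 on the minus strand of chromosome 10. *DBR1* (ENSG00000138231) runs from 138161012 to 138174949 on the minus strand of chromosome 3, and *GCFC2* (ENSG00000005436) from 75652000 to 75710989 on the minus strand of chromosome 2. *PAXBP1* (ENSG00000159086) runs from 32733899 to 32771858 on the minus strand of chromosome 21, and *CWF19L2* (ENSG00000152404) from 107326345 to 107457844 on the minus strand of chromosome 11. *DHX8* (ENSG00000067596) runs from 43483865 to 43544463 on the plus strand of chromosome 17 and shares 68 exonic bases with *ETV4*, and *AQR* (ENSG00000021776) from 34851782 to 34969839 on the minus strand of chromosome 15. *PAXBP1* shares 332 exonic bases with the antisense gene *PAXBP1-AS1*, which held 16 to 60 counts per library.

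Promoter sequence, from 250 bases before to 50 after the start in RefSeq (GRCh38.p14), was at hand for 7 of the 9 genes, not for *PAXBP1* and *DBR1*. On either strand, the letters of an ETS factor site (CCGGAAG) lay in 4 of the 7, those of *TFIP11*, *CWF19L2*, *DHX8* and *AQR*, and in 10.7% of 27305 promoters. The core of a cyclic AMP response element (TGACGT) lay in those of *TFIP11* and *CWF19L1*, and in 8.32% of promoters. The letters of an NRF1 site (GCGCATGC, 3.27% of promoters) lay in that of *CWF19L2*, and those of a YY1 site (ATGGCGG, 5.72%) in those of *DHX15* and *CWF19L2*. No match in a member overlapped another. A match describes the letters and is not a bound site. The windows around the element core in the first pair, and around the ETS letters in 3 of the 4, are shown from 5′ to 3′ on the strand of the gene, with the motif or its reverse complement in capitals.
TFIP11, chr22:26512485-26512512, minus strand: gctgtcgactaACGTCAtttccggcgcg
CWF19L1, chr10:100267672-100267699, minus strand: ctggagggcgcTGACGTctgattgttgc
CWF19L2, chr11:107457874-107457901, minus strand: cttcctcgggtCCGGAAGtcccggtttg
DHX8, chr17:43483947-43483974, plus strand: cgcgcgctgacCCGGAAGtgaaagctgg
AQR, chr15:34969809-34969836, minus strand: gcctgcatgaaCTTCCGGctacacgcca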

How the data were processed

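Poly-A selected RNA of 18 cultures was sequenced, and the authors deposited raw counts per gene, without normalization, for each library. The submitters' processing notes name Trimmomatic 0.36, STAR 2.5.2b and featureCounts of Subread 1.5.2. The methods name hg19 and the submitters' processing notes GRCh38, and the positions in the files fit GRCh38 (85.4% of 18950 protein-coding genes start within 1 kb of that annotation, against 4.05% of 19583 for GRCh37). The library kit named in the methods does not mark strand. Cells were plated in triplicate, so that p-values measure only the spread between these cultures, which may be technical. No pair of replicates agreed within sampling noise.

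Each comparison was fitted on all genes that passed edgeR's filterByExpr, with TMM scaling and the quasi-likelihood test (edgeR 4.0.16, R 4.3.3), Benjamini-Hochberg adjustment and a call at an adjusted p under 0.05. Comparisons between lines used an interaction term. The alternatives were DESeq2 (1.42.0) and its size factors, library totals alone, other filters on low counts, a single fit of all 18 libraries, a block by replicate letter, a lowess correction by GC content and exonic length (span 0.3), an adjusted p under 0.01, a fold of 2 and leaving out each library. The "9 other fits" are these without the stricter thresholds and the left-out libraries. Libraries were to be paired by letter where deviations of the same letter correlated over 0.1 for every letter across all genes tested. No comparison within a line met this rule, so the main fits are unpaired. In the Rh30 knockdown all 3 correlations were positive, and its values with the block are given below. Scripts were tested on simulated data.

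The named genes are the 9 members, *DNAJC17*, the 3 called genes with the smallest p of each list on knockdown, genes overlapping a member, and the 2 protein-coding genes closest to each member (log2 CPM with a prior count of 2, mean of at least 100 counts). The members and lists were chosen with earlier results of these data known. Sequences are from RefSeq. Python 3.11.15, numpy 2.4.6, pandas 2.3.3 and matplotlib 3.10.9 were used.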

Additional observations from a re-analysis of the deposited data

Results flagged for a closer look

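The response to knockdown differed between the lines for *GCFC2*, by 0.48 on the log2 scale (Rh30 minus ES8, edgeR's interaction term, adjusted p = 0.0252), a call that held without 6 of the 12 libraries in turn and was lost without the other 6. The difference between ΔRRM and sgCTL was more positive in Rh30 for *CWF19L1* (0.79, adjusted p = 1.47e-06), *GCFC2* (0.55, adjusted p = 0.000659), *DHX15* (0.52, adjusted p = 2.05e-05) and *DBR1* (0.33, adjusted p = 0.00897), and more negative for *DHX8* (-0.61, adjusted p = 7.77e-06), *TFIP11* (-0.50, adjusted p = 6.67e-05) and *AQR* (-0.30, adjusted p = 0.0173). Of these 7, *DBR1* turned with the correction by GC and length (-0.11), and 41.4% of all genes tested were called in the same contrast.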

How the results depend on the processing

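Of the comparisons' values for single members, 757 kept their direction and side of the threshold under the alternatives other than leaving out a library, 36 gained a call, 66 lost one and 32 changed sign, and 541, 8, 31 and 14 did so when a library was left out. The cause of a change was not tested. Counts of a list under the alternatives were added after seeing the data.

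With a fold of 2, 0 members were called in any comparison. In the ES8 knockdown, 1 member fell with no filter on low counts and with the correction by GC and length, with or without the block. Of all genes, 8.29% fell with no filter, 20.0% with the correction and 19.7% with the block as well, against 13.8% in the main fit. In the Rh30 knockdown, 2 rose at an adjusted p under 0.01, with library totals alone, with no filter and with all 18 libraries in 1 fit. In that order, 8.76%, 11.1%, 7.87% and 9.17% of all genes rose, against 16.1% in the main fit. In ES8 ΔRRM against sgDNAJC17, 0 fell at an adjusted p under 0.01, 2 fell with DESeq2, 3 fell with all 18 libraries in 1 fit, and 2 fell with the correction, with or without the block, where 1 rose without it. In that order, 2.65%, 8.7%, 12.4% and 16.3% of all genes fell, against 7.36% in the main fit. With the correction and the block 13.9% fell, and 15.5% rose with the correction alone. In Rh30 ΔRRM against sgDNAJC17, 1 was higher at an adjusted p under 0.01 and with library totals alone, where 24.9% and 21.0% of all genes were (29.4% in the main fit). For the interaction with the sgRNA, 0 were positive at an adjusted p under 0.01, with library totals alone and with all 18 libraries in 1 fit, and 2 with DESeq2, while 1 was negative with DESeq2, with at least 10 counts in every library, with all 18 libraries and with the correction (2 with the block). In that order, 1.6%, 3.39%, 3.14% and 6.57% of all genes were positive, against 5.23% in the main fit. The negative shares were 6.53%, 7.83%, 6.42% and 6.4% (7.92% with the block), against 4.55%. Between the lines with sgCTL, the members lower in Rh30 were 2 with DESeq2, its size factors or the correction, 3 with at least 10 counts in every library and 4 with library totals alone. In that order, 45.6%, 46.3%, 44.2%, 43.1% and 51.7% of all genes were lower, against 45.5% in the main fit.

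The libraries share only a replicate letter. The closest case was the Rh30 knockdown, where deviations of the same letter correlated at 0.203, 0.072 and 0.0975 (A, B and C) across the 15391 genes tested. Across the 11426 genes with a mean of at least 100 counts, a filter chosen after that result and the blocked calls had been seen, they correlated at 0.576, 0.287 and 0.348. With the block in this comparison 1 member, *DHX8* (-0.10, adjusted p = 0.0467 by edgeR), was called lower and no other member's call changed. Of all genes, 3621 were called higher and 3614 lower (47.0%, against 32.3% without the block), of the 26 genes of the catalytic steps 14 and 7, and of the 21 G-patch genes 6 and 9. With the correction as well, 9 and 4 of the G-patch genes were called, where 22.6% of all genes were higher and 19.8% lower. Elsewhere the block left 0 members lower in ES8 ΔRRM against sgDNAJC17 (*TFIP11* at an adjusted p of 0.0894 by edgeR), where *CWF19L2* was 0.01 and 4.3% of all genes were lower. The block took the call from *DHX15* in the ES8 knockdown, and called *DHX15* besides *GCFC2*, 2 members, positive in the interaction with the sgRNA. In that interaction 6.57% of all genes were positive with the block.

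The correction changed the sign of *AQR* (0.09) in the ES8 knockdown, of *CWF19L1* (-0.01), *CWF19L2* (-0.03, and -0.02 with the block) and *AQR* (0.01) in the Rh30 knockdown, of *DHX15* (0.08) and *AQR* (0.03) in ES8 ΔRRM against sgCTL, and of *DBR1* in Rh30 ΔRRM against sgCTL (-0.04), against sgDNAJC17 (-0.08) and in the interaction with ΔRRM (-0.11, and -0.10 with the block). It also did so for *AQR* in the interaction with the sgRNA (-0.04, and -0.02 with all 18 libraries in 1 fit) and, between the lines, for *GCFC2* (-0.02) and *AQR* (0.07). Between the lines *GCFC2* was also -0.02 with DESeq2 or its size factors, -0.08 with at least 10 counts in every library and -0.21 with library totals alone. Library totals alone gave -0.01 for *PAXBP1* in Rh30 ΔRRM against sgCTL and -0.06 for *DHX15* against sgDNAJC17.

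Leaving out 1 library gave 0 to 1 members that fell in the ES8 knockdown, 1 to 4 that rose and 0 to 1 that fell in the Rh30 knockdown, 0 to 2 that were lower in ES8 ΔRRM and 1 to 3 that were higher in Rh30 ΔRRM against sgDNAJC17, and 0 to 2 positive interactions with the sgRNA. In the same order, the share of all genes so called was 6.69% to 22.9%, 9.45% to 20.3% and 9.91% to 21.1% on knockdown. It was 3.48% to 9.3% and 26.2% to 28.8% against sgDNAJC17, and 1.62% to 7.33% for the interaction. Members that changed sign ran from -0.18 to 0.16 (*CWF19L2*), -0.16 to 0.03 (*CWF19L1*) and -0.16 to 0.01 (*AQR*) in the ES8 knockdown, and from -0.11 to 0.04 (*PAXBP1*) and -0.02 to 0.12 (*CWF19L1*) in the Rh30 knockdown. In ES8 ΔRRM they ran from -0.05 to 0.02 (*DHX15*) and -0.16 to 0.02 (*GCFC2*) against sgCTL, and from -0.01 to 0.17 (*GCFC2*) and -0.22 to 0.12 (*CWF19L2*) against sgDNAJC17. *AQR* ran from -0.04 to 0.10 in the interaction with the sgRNA, and *GCFC2* from -0.05 to 0.04 between the lines. With the longest coding transcript as length, 4 or 5 of the 9 members kept their place in the order of levels in each group but Rh30 sgCTL, where 7 did.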
